A study of Canis lupus familiaris with 36 samples.

Results

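The module described here holds 96 genes of CLBL-1 cells, a B-cell lymphoma line from a dog, whose RNA was higher with the combination of Ibrutinib and AS-605240 than with the solvent at every time point. The genes were selected on the measured values themselves. A gene was kept when its mean level was at least 2 CPM (the reads of a gene scaled to 1000000 reads of its library), when its level under the combination had a log2 ratio to DMSO of 1 or more at 24, 48 and 72 h (0.5 CPM was added to both means), and when its level in DMSO alone differed by less than 0.8 on the log2 scale between 72 h and 24 h. One further gene that met these limits, HMOX1, the enzyme that degrades heme, was left out by the rule. Of 30424 genes in the table, 10037 reached 2 CPM, 123 of these (1.23%) passed the limits on the combination, and 26 of those 123 were dropped because DMSO alone changed with time. For comparison, 112 genes (1.12%) were at a log2 ratio of -1 or lower at all 3 times.

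The lymphoma of origin was of the diffuse large B-cell type, and the line is long established. The cells were incubated with Ibrutinib at 1 µM (Ibr), AS-605240 at 5 µM (AS), the same doses of both together (Ibr + AS), or DMSO as the solvent control. They were harvested after 24, 48 or 72 h. By the paper, the control held the DMSO concentration of the combination, and that of the single-agent cultures is not stated. A part of the solvent in the ratios of the single agents was not tested. Every group was made once from cells of passage p121, once from passage p126 and once from passage p128, which gives 36 libraries in 12 groups of 3. All passages are of a single line, so p-values measure the spread between passages of that line and not between dogs. The Ibr 72 h library of passage p128 was left out of all comparisons, and that group has 2 libraries. The paper discarded it as an outlier by clustering and principal component analysis. The libraries held between 9941919 and 14703839 reads on genes.

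B cells receive a survival signal through the B-cell receptor. Bruton's tyrosine kinase (BTK), which Ibr blocks, carries that signal to phospholipase C and to NF-kB, and PI3 kinases, of which AS blocks mainly the gamma form, make the membrane lipid that recruits BTK and the kinase AKT. When AKT is inactive, FOXO transcription factors enter the nucleus, and genes of arrest, catabolism and B-cell identity are transcribed more.

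Only 6 of the 96 genes could be paired with a symbol, because symbols were at hand for 1068 identifiers of the table, of which 845 reached 2 CPM. The other 90 are described by counts and ranges, and a few by their Ensembl identifiers. Of these 6, 5 are described here, and they belong to different parts of the cell. TNFRSF13C is the receptor for the B-cell survival factor BAFF. GSDMD is gasdermin D, whose cleaved form opens pores in the plasma membrane. FGD2 is an exchange factor that activates the GTPase CDC42. RASGEF1C carries a Ras exchange factor domain. TMEM71 is a transmembrane protein.

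The label as a B-cell line could be checked with 2 of 7 B-cell markers that have a symbol. DLA-DRA, an MHC class II chain, was at 2700 to 4740 CPM in the 9 DMSO libraries and at 2090 to 4040 CPM in the 9 Ibr + AS libraries, and TNFRSF13C was at 71.0 to 132 and 151 to 281 CPM. The single T-cell marker with a symbol, TCF7, did not exceed 0.173 CPM in these libraries. Of 7 myeloid markers, 3 had a symbol, and their summed level was 197 to 282 CPM in DMSO and 334 to 469 CPM in Ibr + AS. Of these, lysozyme (LYZ) was at 68.2 to 115 and 136 to 287 CPM, NCF4, a subunit of the phagocyte oxidase that B cells also express, was at 107 to 196 and 149 to 208 CPM, and TREM2 stayed at or below 0.0876 CPM. The part of this shift in the module was not tested. In RNA of whole cultures, a change in the share of some cells and a change in RNA per cell cannot be told apart. None of 4 erythroid markers had a symbol.

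TMEM71 had the largest response to Ibr + AS of the genes described here at 24 and 48 h and the smallest at 72 h. At 24 h the libraries of passages p121, p126 and p128 held 8.54, 8.16 and 8.25 CPM in DMSO, 12.6, 9.99 and 11.7 CPM with AS, 30.6, 25.2 and 24.4 CPM with Ibr and 92.6, 100 and 69.8 CPM with Ibr + AS. The treatments were in separate ranges, from DMSO at the bottom through AS and Ibr to Ibr + AS. At 72 h the values were 17.1, 14.5 and 12.2 CPM in DMSO, 11.7, 9.92 and 8.91 CPM with AS, 13.4 and 15.1 CPM with Ibr and 19.8, 35.4 and 34 CPM with Ibr + AS. By then DMSO and Ibr overlapped, AS was below DMSO in every passage, and Ibr + AS was still above all of them. The log2 ratio of Ibr + AS to DMSO was 3.32 at 24 h, 2.24 at 48 h and 1.00 at 72 h, so TMEM71 lay just inside the limit at the last time, and within passage p121 the ratio at 72 h was 0.21. Its change in DMSO over time, a log2 ratio of 0.78, was the largest of any member and also lay just inside its limit.

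FGD2 kept a larger part of its response. At 48 h the libraries held 34.9, 31.9 and 34 CPM in DMSO, 46.3, 42.4 and 42.5 CPM with AS, 64.6, 46.5 and 53.9 CPM with Ibr and 112, 118 and 107 CPM with Ibr + AS. Each treatment was in a range of its own, with the lowest Ibr library close to the highest AS library. The log2 ratio of Ibr + AS to DMSO was 1.72 at 24 h, 1.73 at 48 h and 1.22 at 72 h.

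RASGEF1C was the named gene with the fewest reads. Its ratio of Ibr + AS to DMSO was larger at 72 h than at 24 h, as was that of TNFRSF13C. At 48 h it was at 1.52, 1.61 and 1.67 CPM in DMSO, 2.83, 2.74 and 3.36 CPM with AS, 3.80, 2.73 and 2.68 CPM with Ibr and 7.95, 6.60 and 6.67 CPM with Ibr + AS. The single agents overlapped each other and both were above DMSO. Ratios of Ibr + AS to DMSO were 1.67, 1.85 and 2.01 on the log2 scale at 24, 48 and 72 h, from 15 to 35 reads in a DMSO library at 24 h.

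The BAFF receptor gene TNFRSF13C responded to the combination more than to either agent. At 48 h it was at 108, 110 and 105 CPM in DMSO, 105, 138 and 115 CPM with AS, 134, 150 and 149 CPM with Ibr and 204, 274 and 236 CPM with Ibr + AS. AS overlapped both DMSO and Ibr, and Ibr + AS was apart. In DMSO the level was 122 ± 12.8 CPM at 24 h and 76.0 ± 5.19 CPM at 72 h (SD, n = 3 each), and with Ibr + AS it was 267 ± 13.1 CPM and 187 ± 35.6 CPM (SD, n = 3 each), so both levels were lower at 72 h while the log2 ratio was 1.13 at 24 h and 1.29 at 72 h.

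The pore-forming GSDMD was close to the limit at all times, with log2 ratios of Ibr + AS to DMSO of 1.09, 1.17 and 1.09. At 48 h it was at 72.7, 75.5 and 77.9 CPM in DMSO, 89.2, 84.2 and 93.8 CPM with AS, 108, 91.6 and 107 CPM with Ibr and 167, 184 and 160 CPM with Ibr + AS. Here both single agents were above DMSO in every passage, and their libraries overlapped.

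**Figure D1:**
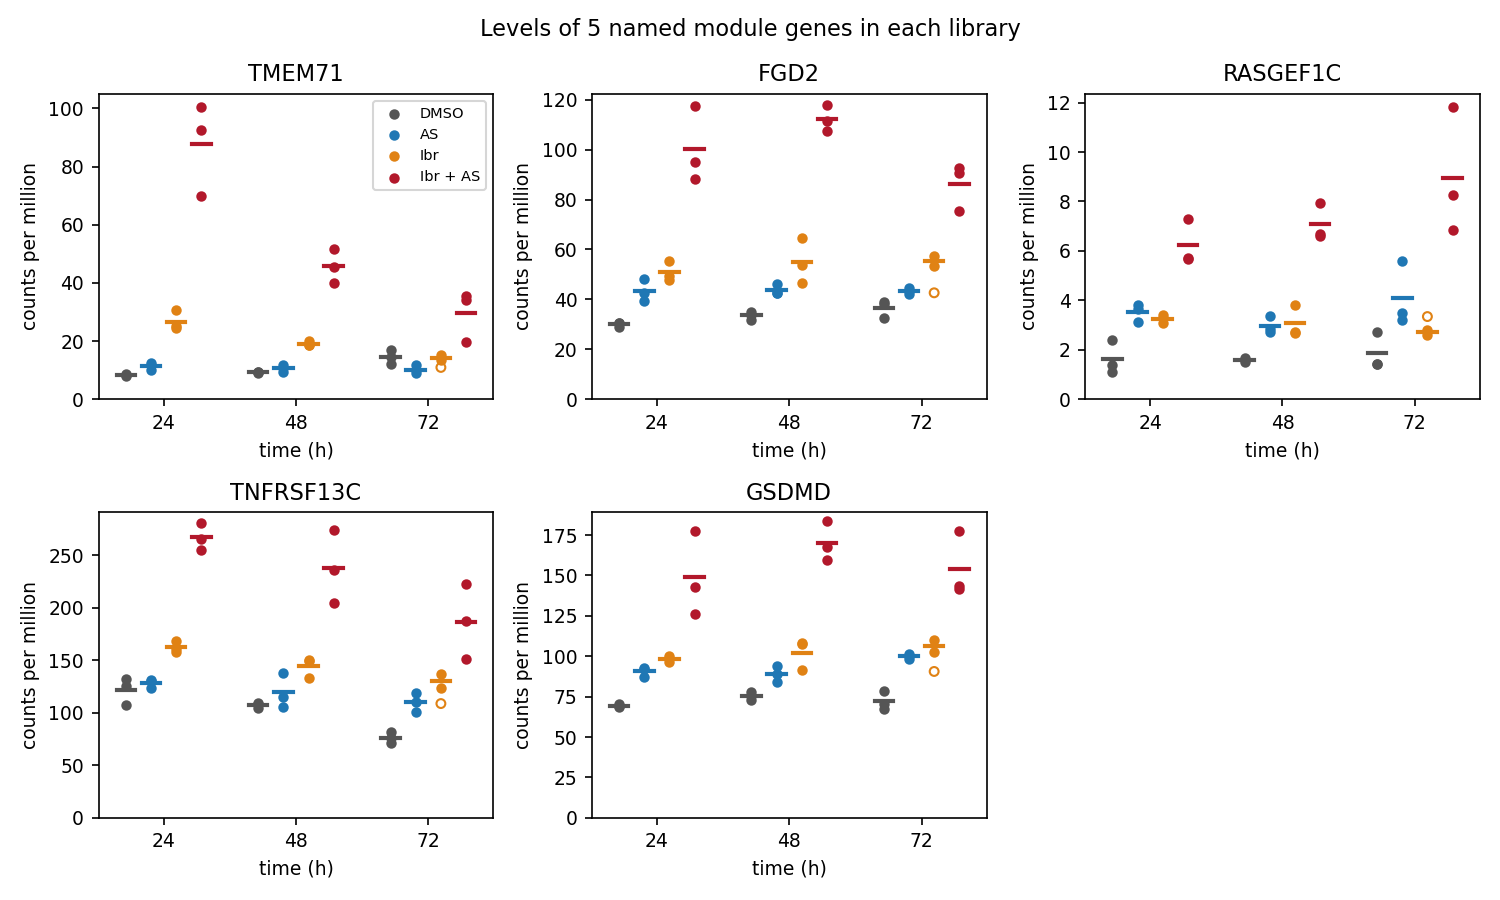
Level in CPM (vertical axis, from 0) of 5 module genes with a symbol at 24, 48 and 72 h in each library, coloured by treatment. Points are libraries, bars are group means, and the open circle is the Ibr 72 h library left out. Ibr + AS is the highest group of each gene at each time, and the TMEM71 mean with Ibr + AS is 87.7 CPM at 24 h and 29.7 CPM at 72 h.

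Over all 96 genes, the log2 ratio of Ibr + AS to DMSO had a median of 1.69 at 24 h (1.1 to 5.69), 1.73 at 48 h (1.00 to 5.12) and 1.49 at 72 h (1.00 to 4.53). These values chose the genes and are given without a test. The medians of all 10037 genes that reached 2 CPM were -0.17, -0.16 and -0.04. With TMM scaling, which corrects for the make-up of the libraries, the medians of all genes moved to -0.04, -0.05 and -0.01 and those of the module to 1.82, 1.84 and 1.52. The response was smaller at 72 h than at 24 h by over 0.5 for 27 genes, larger by over 0.5 for 6, and within 0.5 for 63. The module genes together took 3292 ± 131 CPM in DMSO and 10630 ± 1170 CPM in Ibr + AS at 24 h, and 2944 ± 58.7 and 8199 ± 1230 CPM at 72 h (SD, n = 3 each).

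The member with the largest mean ratio was ENSCAFG00000019993, which was nearly silent without Ibr. Its libraries held 0, 0.136 and 0.0917 CPM in DMSO at 24 h, 0.174, 0.234 and 0 CPM with AS, 2.30, 2.42 and 2.39 CPM with Ibr and 36, 32.1 and 19.6 CPM with Ibr + AS. Only the groups with Ibr were above 2 CPM. With 3 reads over the DMSO libraries and 1104 over the Ibr + AS libraries at 24 h, the ratio of the CPM was 379, with an exact 95% counting interval of 129 to 1840 that covers the sampling of reads only. The log2 ratio of 5.69 given by the rule is smaller because 0.5 CPM was added to both means. ENSCAFG00000013819, the member with the most reads, moved little beyond the limit. It was at 347, 296 and 298 CPM in DMSO at 48 h, 339, 373 and 374 CPM with AS, 471, 391 and 470 CPM with Ibr and 800, 822 and 768 CPM with Ibr + AS. The module genes took fewer reads than genes in general, with a median mean level of 22.1 CPM beside 37.0 CPM over the 10037 genes, which is not corrected for gene length.

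The values near the limits were continuous. Of the members, 15 had their smallest of the 3 ratios within 0.1 above the limit, and 23 genes missed it by less than 0.1. The member just inside was at 1.001 and the gene just outside at 0.992. IRF1, the interferon regulatory factor that activates antigen presentation genes, was outside with ratios of 1.44, 1.14 and 0.96. MTSS1, an actin-binding scaffold protein, had ratios of 3.56, 2.64 and 1.45 and was left out for a change of 0.85 in DMSO over time, and the Golgi protein GOLM1, with ratios of 1.37, 1.55 and 2.12, for a change of -0.82. ZDHHC14, a palmitoyltransferase, had ratios of 1.12, 1.29 and 1.54 and a DMSO change of -1.12.

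The single agents were next set beside the combination. Ratios of Ibr and AS to DMSO use the DMSO libraries that chose the genes and are therefore a description. The median log2 ratio of the 96 genes was 0.75 with Ibr at each of the 3 times, and 0.36, 0.25 and 0.47 with AS at 24, 48 and 72 h. Medians of all genes that reached 2 CPM were between -0.07 and 0.03 for both agents. With Ibr alone 11 members were at a log2 ratio of 1 or more at all 3 times, where 0.209% of the 10037 genes were, and with AS alone 2 were, where 0.0399% were. The Ibr mean was above the AS mean for 93 of the 96 at 24 h, for 92 at 48 h and for 83 at 72 h, beside 40.9%, 39% and 47.2% of the 10037 genes.

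**Figure D2:**
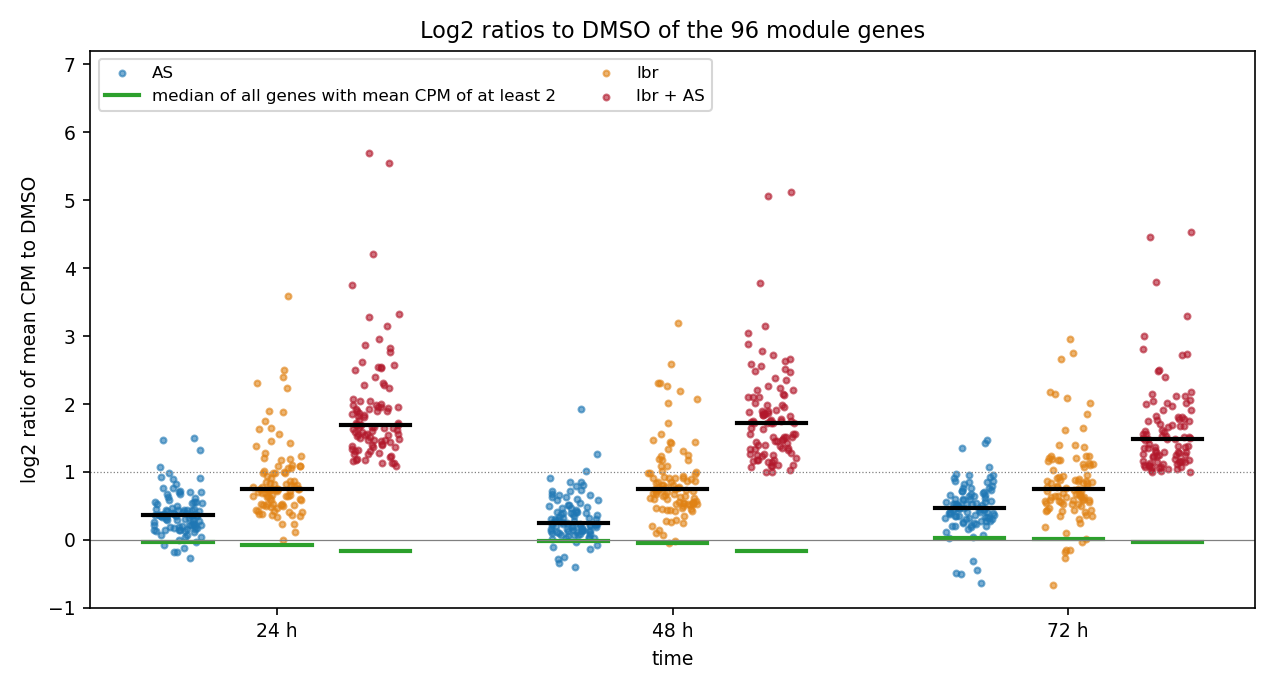
Log2 ratio of the mean CPM to DMSO (vertical axis) for the 96 module genes with AS, Ibr and Ibr + AS at 24, 48 and 72 h. Each point is a gene, black bars are medians of the module, green bars are medians of all genes that reached 2 CPM, and the dotted line is the limit that Ibr + AS had to pass. At 48 h the module median is 0.25 for AS, 0.75 for Ibr and 1.73 for the combination.

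To read the combination in libraries that took no part in the choice, the genes were chosen again by the same rule in 2 passages, and their ratios were read within the third. This gave 101 genes with passage p121 held out, 91 with passage p126 and 84 with passage p128. At 24 h the median log2 ratio of Ibr + AS to DMSO in the held-out passage was 1.88, 1.61 and 1.65 (mean 1.71 ± 0.15 SD, n = 3 passages), at 48 h it was 1.59, 1.79 and 1.80 (1.73 ± 0.12), and at 72 h it was 1.07, 1.62 and 1.82 (1.5 ± 0.39). The medians over all genes, averaged over the held-out passages, were -0.17 ± 0.068, -0.16 ± 0.018 and -0.05 ± 0.072 (SD, n = 3). The median of the chosen genes was above that of all genes in each held-out passage at each time, and it was smallest in passage p121 at 72 h.

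The share of the chosen genes that again reached a log2 ratio of 1 with Ibr + AS was 92.8% at 24 h (256 of 276 gene and passage pairs), where 4.52% of all pairs did. It was 93.5% at 48 h beside 3.43%, and 76.4% at 72 h beside 3.1%. In passage p121 at 72 h it was 54.5%, and in the other passages at that time 87.9% and 90.5%. Over the 96 members themselves, 60 reached the limit within passage p121 at 72 h, 86 to 95 did within each passage at 24 and 48 h, and 44 did in every passage at every time. These counts over the members come from the libraries that chose them and are a description only. The libraries appear to come from 2 sequencing runs, as inferred from their sample-sheet numbers. The p121 libraries were all in the first run and the p128 libraries all in the second, so every ratio within these passages was taken within a run. In p126 at 48 h, DMSO and Ibr were in the first run and AS and Ibr + AS in the second, so the ratios of AS and of Ibr + AS to DMSO crossed runs there. With p126 left out as a held-out passage, the mean held-out median at 48 h was 1.7 for Ibr + AS and 0.259 for AS. The genes read in p121 and p128 were still chosen partly in p126, so p126 was not taken out of the choice.

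The single agents could be read in the same way. In the held-out passage the median log2 ratio of Ibr to DMSO was 0.754 ± 0.089 at 24 h, 0.777 ± 0.12 at 48 h (SD, n = 3) and 0.726 ± 0.13 at 72 h (SD, n = 2). That of AS was 0.349 ± 0.11, 0.293 ± 0.094 and 0.449 ± 0.061 (SD, n = 3). With Ibr 29%, 31.2% and 29.2% of the chosen pairs reached a ratio of 1 at 24, 48 and 72 h, beside 0.917%, 0.877% and 1.88% of all pairs. With AS 9.06%, 4.71% and 10.9% did, beside 0.262%, 0.183% and 0.890%. The median was above 0 with either agent in each passage, and it was higher with Ibr than with AS in each passage and time for which both were used.

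The ratio with the combination was also set against the sum of the log2 ratios of the single agents in the same held-out passage. The median excess over the sum was 0.601 ± 0.067 at 24 h and 0.591 ± 0.13 at 48 h (SD, n = 3), and 0.178 ± 0.031 at 72 h (SD, n = 2, without passage p128). Over all genes it was -0.066 ± 0.094, -0.071 ± 0.028 and -0.050 ± 0.057. The genes were chosen for a high ratio with the combination, with no limit on the single agents. Such a choice favours genes with an excess over the sum, also when the excess is read in a held-out passage. All genes met no such choice, so the difference from them is a description only. The excess was above 0 for 83.3% of 276 chosen pairs at 24 h, 86.6% of 276 at 48 h and 63% of 192 at 72 h. The share of all pairs above 0 was not computed. At these times 21.4%, 20.3% and 10.4% of chosen pairs had an excess of at least 1. Of all pairs, 1.64%, 2.34% and 2.18% did. In p126, by the inferred runs, AS and Ibr + AS at 48 h were in another sequencing run than DMSO and Ibr. Averaged over the p121 and p128 held-out passages alone, the excess at 48 h was 0.519, for genes still chosen partly in p126. No test was made of the difference between the times.

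**Figure D3:**
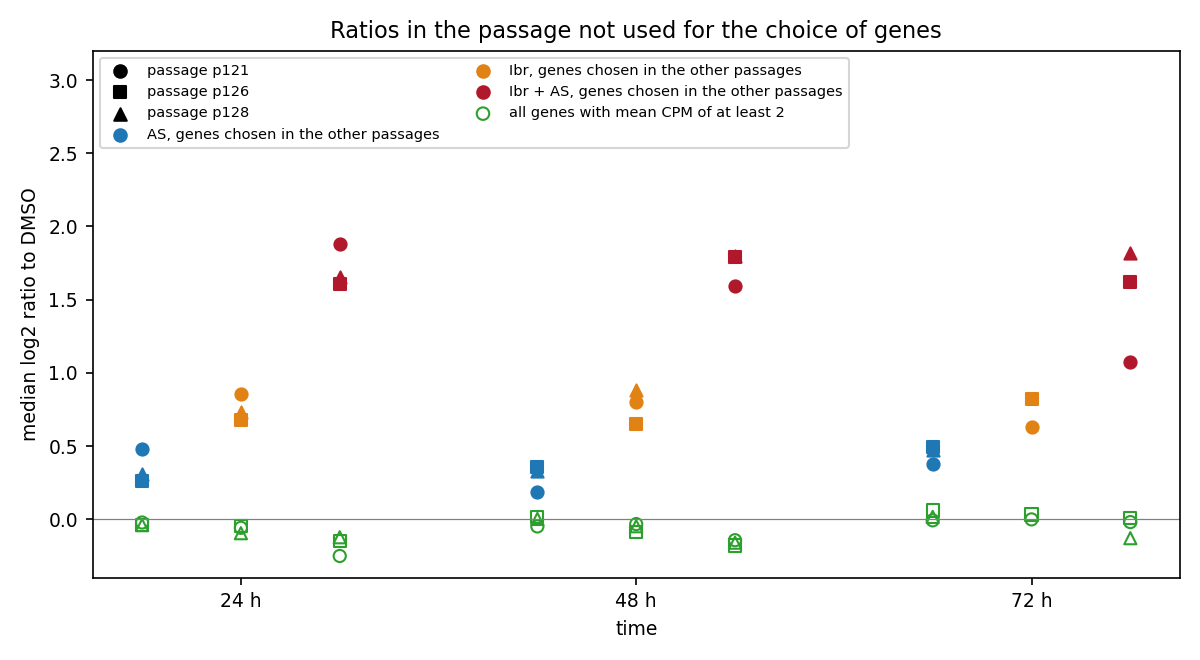
Median log2 ratio to DMSO (vertical axis) in the passage that was not used to choose the genes, at 24, 48 and 72 h. Filled symbols are the chosen genes, coloured by treatment, open green symbols are all genes that reached 2 CPM, and the shape gives the held-out passage. For Ibr + AS the filled symbols are between 1.07 and 1.88, and the lowest is passage p121 at 72 h.

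Whether the genes responded differently to the single agents was tested by comparing Ibr with AS directly, since neither group was used for the limits on the ratios. The counts of all 18670 genes with at least 2 reads were fitted with edgeR, with passage and group as terms, and a gene was called differentially expressed (DEG) when its Benjamini-Hochberg adjusted p was 0.05 or less and its log2 fold change (log2 FC) was above 1 or below -1. More members were higher than lower with Ibr. At 24 h, 12 of 96 were DEGs higher with Ibr, where 0.155% of all genes were, and 1 was a DEG lower with Ibr, where 0.0536% were. At 48 h the counts were again 12 and 1, beside 0.182% and 0.150% of all genes. At 72 h they were 7 and 1, beside 0.145% and 0.273%. Thus members were 12 of the 29 genes called higher with Ibr at 24 h, 12 of 34 at 48 h and 7 of 27 at 72 h. Of the genes that reached 2 CPM, as all members did, 0.199%, 0.249% and 0.229% were DEGs higher with Ibr at 24, 48 and 72 h. The shares of DEGs lower with Ibr were 0.0697%, 0.149% and 0.309%. The member ENSCAFG00000019993, counted as called at 24 and 48 h, reached 2 CPM only through the Ibr + AS libraries. Of the members, 17 were called higher with Ibr at some time, where 0.327% of all genes were, and 5 at all times, where 0.0482% were. Without passage p126 the members called in either direction numbered 8 in place of 13 at 24 h and 5 in place of 8 at 72 h. With a term for the inferred sequencing run, 13 members were called at 48 h, the time at which Ibr and AS of p126 were in different runs. Without p126 the Ibr 72 h group held 1 library, which was taken to vary like the other groups.

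At an adjusted p of at most 0.05 with no limit on the fold change, 32 members were higher with Ibr at 24 h (0.530% of all genes), 46 at 48 h (1.12%) and 16 at 72 h (0.846%). One member was lower at each time, where 0.187%, 0.546% and 1.1% of all genes were. Among the genes that reached 2 CPM the shares were 0.897%, 1.99% and 1.53% higher and 0.319%, 0.887% and 1.85% lower. The median log2 FC of Ibr over AS in the 96 genes was 0.43 at 24 h, 0.55 at 48 h and 0.32 at 72 h, and that of all genes that reached 2 CPM was between -0.02 and -0.01. Every Ibr library was above every AS library for 65 members at 24 h (7.77% of all genes at 2 CPM), 68 at 48 h (7.13%) and 61 at 72 h (19.6%), the last with 2 libraries against 3.

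Among the named genes, TMEM71 was called at 24 h, with a log2 FC of Ibr over AS of 1.24 ± 0.185 (SE, edgeR adjusted p = 0.00032). At 48 h it was 0.88 ± 0.191 (adjusted p = 0.011), and at 72 h 0.45 ± 0.221 (adjusted p = 0.45). For FGD2 the difference passed the adjusted p at 48 h, with a log2 FC of 0.36 ± 0.103 (SE, edgeR adjusted p = 0.046). TNFRSF13C had a log2 FC of 0.36 ± 0.0981 at 24 h (SE, edgeR adjusted p = 0.058) and did not pass at any time, nor did GSDMD and RASGEF1C. The 48 h difference of GSDMD was 0.23 ± 0.0996 (SE, adjusted p = 0.35), and that of RASGEF1C 0.09 ± 0.246 (SE, adjusted p = 1.0).

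ENSCAFG00000019993 had 82 reads over the Ibr libraries and 5 over the AS libraries at 24 h, a ratio of 17 (exact 95% counting interval 6.99 to 53.7). It was called at 24 h (edgeR adjusted p = 0.026) and at 48 h (adjusted p = 0.013) but not at 72 h (adjusted p = 0.068), where the ratio was 10.9 (4.63 to 31.3). The gene reached a mean of 2 CPM only through the Ibr + AS libraries, which averaged 29.2, 21.5 and 11.5 CPM at 24, 48 and 72 h. With Ibr the means were 2.37, 2.64 and 1.99 CPM. Its calls are therefore not independent of the choice of genes. The fitted fold change of a gene with so few reads depends on the prior count and is not given.

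The member called lower with Ibr was ENSCAFG00000020252 at all 3 times. It is named because it was the exception, after its values were seen. At 24 h its libraries held 67.1, 74.5 and 67.3 CPM in DMSO, 68.2, 80.1 and 78.5 CPM with Ibr, 196, 195 and 200.5 CPM with AS and 304, 250 and 230 CPM with Ibr + AS. Ibr was close to DMSO, and AS was apart from both. The log2 FC of Ibr over AS was -1.37 ± 0.108 at 24 h (SE, edgeR adjusted p = 6.3e-14), -1.65 ± 0.11 at 48 h (adjusted p = 4.2e-17) and -1.77 ± 0.129 at 72 h (adjusted p = 4.6e-15). At 72 h it was at 44.9 and 53.0 CPM with Ibr, 160, 167 and 170.0 CPM with AS and between 360 and 494 CPM with Ibr + AS. Its log2 ratio of Ibr + AS to DMSO was 1.90, 2.89 and 2.81.

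**Figure D4:**
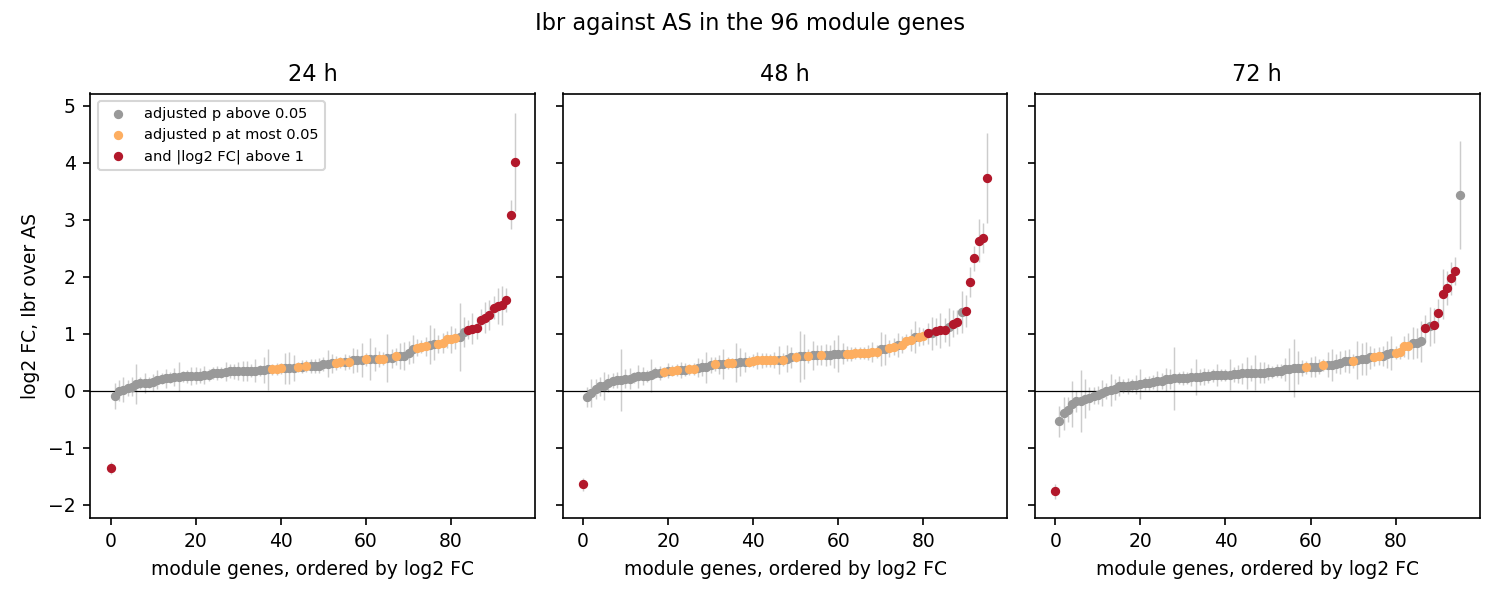
Log2 FC of Ibr over AS (vertical axis) from edgeR for the 96 module genes at 24, 48 and 72 h, ordered by value within each panel, with bars of 1 SE. Grey points have an adjusted p above 0.05, orange points pass it, and red points also have an absolute log2 FC above 1. The single red point below 0 in each panel is ENSCAFG00000020252, and the medians are 0.43, 0.55 and 0.32.

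The single agents were also compared over time, in libraries that the limits on the ratios did not use. The rule did limit the change of the members in DMSO between these times, and the background genes met no such limit. The shares below may therefore be partly set by the choice of genes. With Ibr, 3 members were DEGs lower at 72 h than at 24 h, where 0.370% of all genes were lower, and 0 were higher, where 0.589% were. DESeq2 also called 0 higher. At an unadjusted p under 0.05 in edgeR, 28 were lower and 7 higher with Ibr, beside 7.80% and 6.86% of all genes. At the adjusted p alone, 16 were lower and 2 higher, beside 2.12% and 2.35% of all genes and 3.69% and 4.06% of the genes that reached 2 CPM. With AS, 1 member was a DEG lower at 72 h and 0 were higher, beside 0.236% and 0.948% of all genes, and DESeq2 called 1 higher. At an unadjusted p under 0.05 in edgeR, 18 were lower and 11 higher with AS, beside 6.64% and 8.56% of all genes. At the adjusted p alone 11 were lower and 5 higher, beside 2.01% and 3.93% of all genes and 3.44% and 6.60% of the genes that reached 2 CPM, so the share of members higher at 72 h was near the background. The medians over the 96 genes were -0.22 with Ibr and -0.05 with AS. By the inferred sequencing runs, p126 was in the first at 24 h and in the second at 72 h. These comparisons, and the limit on the DMSO change, therefore crossed runs in p126. With a term for the inferred run, 3 members were called with Ibr and 1 with AS. Without passage p121 the DEGs were 6 with Ibr and 3 with AS, and without passage p128 there were 4 with AS. The Ibr 72 h group held only the p126 library without p121, and its spread was taken from the other groups.

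The member called as a DEG over time with both agents was ENSCAFG00000012813, named for that after its values were seen. With Ibr it was at 59.6, 50.7 and 53.7 CPM at 24 h and at 21.2 and 21.9 CPM at 72 h, a log2 FC of -1.37 ± 0.177 (SE, edgeR adjusted p = 3.2e-06). With AS it was at 46.2, 36.8 and 34.5 CPM at 24 h and 21.3, 14 and 16.9 CPM at 72 h, a log2 FC of -1.19 ± 0.158 (adjusted p = 3.7e-06). In DMSO it was at 23.7 ± 1.72 and 14.2 ± 2.26 CPM (SD, n = 3 each), so its level was lower at 72 h there too. The other members called with Ibr were ENSCAFG00000003694, with a log2 FC of -1.16 ± 0.280 (SE, edgeR adjusted p = 0.017), and ENSCAFG00000012005, with -1.03 ± 0.271 (adjusted p = 0.014). TMEM71 was lower by a log2 FC of -0.98 ± 0.207 with Ibr (SE, edgeR adjusted p = 0.0040), and with AS its value was -0.19 ± 0.202 (adjusted p = 0.75).

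Whether the ratio of Ibr to AS differed between 72 h and 24 h was tested as an interaction. Of the members, 0 were called in edgeR, where 0.00536% of all genes were called higher and 0.0107% lower. At an unadjusted p under 0.05 in edgeR 7 members had a lower ratio at 72 h, where 3.44% of all genes did, and 0 had a higher one, where 2.19% did. DESeq2 called 0, with 8 at an unadjusted p under 0.05. The interaction of TMEM71 was -0.79 ± 0.289 on the log2 scale (SE, edgeR adjusted p = 0.69).

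The module was last set beside 5 lists of genes that belong to the inhibited pathways and to processes they are known to govern. In most lists only part of the genes had a symbol, and these counts describe the paired genes only. Of 26 interferon and NF-kB genes, 18 had a symbol and 17 reached 2 CPM, with TNFRSF13C as the member. Their median log2 ratio of Ibr + AS to DMSO was -0.10, -0.01 and 0.08 at 24, 48 and 72 h. All 25 actin and adhesion genes had a symbol, and 22 reached 2 CPM. Here FGD2 was the member, MTSS1 also passed the limits on the combination, AKAP12 and PTK2 were at -1 or lower at all times, and the medians were -0.07, 0.04 and 0.29.

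Of 32 FOXO targets, 7 had a symbol and 6 reached 2 CPM, with medians of 0.13, -0.01 and -0.19. Of 19 antigen presentation genes, 8 had a symbol and all 8 reached 2 CPM, with medians of 0.35, 0.23 and -0.30. Of 24 genes of nuclear B-cell factors and B-cell receptor signalling, 11 had a symbol and 9 reached 2 CPM. Their medians were -0.11, -0.26 and -0.05. None of these lists held a member or a gene past a log2 ratio of 1 in either direction at all times. All medians are beside -0.17, -0.16 and -0.04 over all genes.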

How the data were processed

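Poly-A RNA was sequenced as single-end reads. The authors mapped them to CanFam3.1 with STAR 2.7.5a and deposited raw counts per Ensembl gene; the strand column kept is not given in the sources used here. Depth was 9941919 to 14703839 reads on genes (median 11888025). CPM were counts divided by the column sum. The limits were a mean of 2 CPM, a log2 ratio of 1 and a DMSO change of 0.8, with an offset of 0.5 CPM. The module, the gene lists and the tests were chosen with earlier results of these data known. Named genes were all members with a symbol and the members with the largest mean ratio and the most reads; others were named after their values were seen, and 1 member with a symbol is not reported here. Symbols were taken from identifier and symbol pairs in the study's supplementary tables. Tests used edgeR 4.0.16 in R 4.3.3 (TMM, robust quasi-likelihood fit, genes with at least 2 reads, 35 libraries), with terms for passage and for the 12 groups, and were tested on simulated data; DESeq2 1.42.0 was an alternative. Once group means were removed, pairs of libraries that share a passage but no group had a median r of 0.0629 (187 pairs), and pairs that share neither -0.0288 (374 pairs). The passage term was kept as in the study. One DMSO 24 h library has p126 in its title and p128 in its passage field; p128 was used. The checked lists were FOXO targets, antigen presentation, interferon and NF-kB signalling, actin and adhesion, nuclear B-cell factors, and markers of B, T, myeloid and erythroid cells.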

Additional observations from a re-analysis of the deposited data

Results flagged for a closer look

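The Ibr 72 h library of passage p128, which the comparisons leave out, held the module at a level above the DMSO libraries. The 96 genes together took 3756 CPM in it, where the DMSO 72 h libraries were between 2878 and 2990 CPM and the other Ibr 72 h libraries at 4637 and 5098 CPM. The median log2 ratio to DMSO 72 h of the same passage was 0.389 in this library, beside 0.68 in passage p121 and 0.831 in passage p126. The medians over all genes were -0.0165, -0.000738 and 0.0328 in the same order. In the library left out, 81 of the 96 genes were above 0, and the share of all genes above 0 was not computed. The DMSO 72 h libraries took part in the choice of the genes, so these ratios are a description.

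For TMEM71 the ratio of AS to DMSO had opposite signs at different times, while its level with AS changed little. Its log2 ratio to DMSO within a passage was above 0 in all 3 passages at 24 h and 48 h and below 0 in all 3 at 72 h. In p126 at 48 h, a pair that crossed the inferred runs, it was only 0.010. The mean ratio at 72 h less that at 24 h was -0.927, and less that at 48 h it was -0.68. The AS libraries had a log2 FC of -0.19 ± 0.202 at 72 h over 24 h (SE, edgeR adjusted p = 0.75). The difference between the times was not tested, because DMSO was used by the choice of the genes. In DMSO the gene was at 8.32 ± 0.197 CPM at 24 h and 14.6 ± 2.43 CPM at 72 h, and with AS at 11.4 ± 1.34 and 10.2 ± 1.41 CPM (SD, n = 3 each).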

How the results depend on the processing

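Of 165 results recomputed under an alternative, 149 kept their direction and stayed close to the value given (counts within 1.5 times, medians within 1 SD), and 16 moved. Held-out medians recomputed without a passage only lost the value of that passage. Such a mean cannot move by over 1 SD, so these results were bound to stay close and show nothing about stability. With a limit of 1.5 on each log2 ratio the module held 37 genes. The adjusted p alone, with no limit on the fold change, gave 33, 47 and 17 members between Ibr and AS at 24, 48 and 72 h, 18 between 72 h and 24 h with Ibr and 16 with AS. With all 36 libraries, 5 members were called between Ibr and AS at 72 h and 7 over time with Ibr. Over time with AS, 2 were called by DESeq2 and 2 when only the groups compared were fitted, and that fit called 1 member for the interaction. When each passage was left out in turn (which leaves 1 Ibr 72 h library without p121 or p126), the members called between Ibr and AS numbered 8 to 14 at 24 h, 10 to 16 at 48 h and 5 to 10 at 72 h, those over time 3 to 6 with Ibr and 1 to 4 with AS, and the module held 84 to 101 genes. Without the replicate block the counts were 13, 12 and 7 between Ibr and AS, 3 and 1 over time and 0 for the interaction, so the paired fit changed no count by over 1.5 times. A term for the inferred sequencing run, added after seeing the data, gave 13, 13, 8, 3, 1 and 0. In each of these fits 1 member was called lower with Ibr than with AS at each time. Members with few reads limit the precision, as for ENSCAFG00000019993, which had 0 to 2 reads in a DMSO library.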
